A study of Mus musculus with 98 samples.

Results

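7 chemokine receptor genes and Gpr183, a receptor for an oxysterol, were read in every cell of a single-cell data set of mouse intestinal innate lymphoid cells (ILCs). The 8 genes Cxcr6, Ccr6, Gpr183, Cxcr5, Cxcr3, Cxcr4, Ccr7 and Ccr9 were chosen by name, and all 8 had a row among the 23420 gene symbols of the deposited tables. R9-ILCs were regenerated from pluripotent stem cells and sorted as CD45.2+ GFP+ Lin- CD127+ cells, taken 3 weeks after transplantation from the intestine of recipients that were Rag2-/-Il2rg-/-. Their titles run in 2 series, one with no ending after the cell number (32 cells, here R9 cells without ending) and one with the ending 1 (35 cells, here R9 cells of ending 1). WT-ILCs were sorted as CD45.2+ Lin- CD127+ cells from the intestine of 8-week-old wild-type C57BL/6 mice of the CD45.2 strain (31 columns, counted as 22 cells). All cells carry the label C57BL/6. The recipients lack Rag2 and Il2rg, and so have no T, B or ILC lineage of their own, whereas the wild-type hosts keep all of these. Nothing in the labels says how many animals gave the cells or what the endings mean, so each set of cells is 1 sample, and a title series, its handling and its host cannot be told apart.

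Values are TPM, the abundance of a transcript relative to all others in the cell, scaled for transcript length, and can therefore be compared between genes, and a gene is called detected at 1 TPM or more. Sequencing depth cannot be read from TPM and is unknown here. Each R9 cell is 1 column, but 8 of the 22 WT cells are averages of more than 1 column. A gene found in 1 such column can count as detected, which can raise WT shares and numbers of receptors per cell. The median number of detected genes was 2082.5 in R9 cells without ending, 2429 in R9 cells of ending 1 and 2092.5 in WT cells. One gene took at least 10% of the summed TPM in 26 of 32 R9 cells without ending, 1 of 35 R9 cells of ending 1 and 5 of 22 WT cells. An exact 0 can be a failed estimate, since Gapdh was listed at 0 in 24, 1 and 9 cells of these sets in the same order. Every cell of all 3 sets had Id2 and Il7r, the defining ILC regulator and the gene of the sorted CD127, at 1 TPM or more. Mast cell genes were found in the R9 cells without ending, where the summed TPM of 8 mast cell genes ran from 61.1 to 4568. In R9 cells of ending 1 the sum ran from 0 to 616, and in WT cells from 0 to 3.91. Of these genes Tpsb2 was detected in 31 and Cpa3 in 30 of the 32 R9 cells without ending, while Mcpt1, Mcpt2 and Ms4a2 were listed at 0 there. The enterocyte gene Fabp2 was at 1 TPM or more in 12 of 32 R9 cells without ending. It was so in 27 of 35 R9 cells of ending 1 and 22 of 22 WT cells. The summed TPM of 10 epithelial genes, Fabp2 among them, had medians of 125, 12.7 and 1388 in these sets. Between the R9 series, 7 of these 10 genes could be given a fold. Krt8, Krt19, Krt20 and Vil1 were higher by 2-fold or more in the cells without ending. Of all genes above 0 in both series, 14.4% were so. Epcam and Krt18 were lower by 2-fold or more, where 62.1% of all such genes were. No fold is given for Cdh1, which was listed at 0 in the cells without ending.

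Chemokine receptors are G protein-coupled receptors that steer leukocytes along gradients of chemokines. Ligand binding releases Gi proteins, and the signal runs through Rac and its activator Dock2 to the actin skeleton, while Rgs proteins and arrestins end it. In the gut, Ccr6 with its ligand Ccl20 and Cxcr5 with its ligand Cxcl13 guide lymphoid tissue inducer cells, a kind of ILC3, to cryptopatches and lymphoid follicles. Gpr183, also called EBI2, senses an oxysterol made by Ch25h and Cyp7b1 and is known to place ILC3s in the same structures of the mouse colon. Cxcr6 binds the membrane-bound chemokine Cxcl16 and is used by many tissue-resident lymphocytes, Cxcr3 binds interferon-induced chemokines, Cxcr4 binds Cxcl12, Ccr7 binds Ccl19 and Ccl21 and leads cells to lymph nodes, and Ccr9 binds Ccl25 of the small intestine.

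Promoter sequences from RefSeq (GRCm38.p6, 250 bases before to 50 after the start) were at hand for 6 of the 8 genes, in 7 windows. The windows of Cxcr6, Gpr183 and Ccr6 are shown because these receptors were found in most cells of every set and because Cxcr6 and Gpr183 varied together in R9 cells without ending. Capitals mark matches, on either strand, to the RUNX motif TGTGGT. The other motifs searched, also on both strands, were the T-box motif AGGTGTGA, the AP-1 motif TGANTCA and the TATA motif TATAAA. All windows are given 5′ to 3′ on the strand of the gene.
Cxcr6, chr9:123806227-123806526, plus strand: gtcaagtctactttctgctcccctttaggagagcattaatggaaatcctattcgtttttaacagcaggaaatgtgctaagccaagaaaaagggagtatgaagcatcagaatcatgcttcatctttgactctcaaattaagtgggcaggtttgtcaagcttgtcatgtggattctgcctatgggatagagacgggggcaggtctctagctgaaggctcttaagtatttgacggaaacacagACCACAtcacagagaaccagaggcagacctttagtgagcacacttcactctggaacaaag
Gpr183, chr14:121965144-121965443, minus strand: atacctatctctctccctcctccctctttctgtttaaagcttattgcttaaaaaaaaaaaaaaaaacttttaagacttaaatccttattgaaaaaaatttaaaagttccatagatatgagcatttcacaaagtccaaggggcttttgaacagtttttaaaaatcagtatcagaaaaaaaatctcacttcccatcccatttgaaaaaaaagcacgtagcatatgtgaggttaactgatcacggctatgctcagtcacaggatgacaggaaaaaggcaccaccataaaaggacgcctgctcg
Ccr6, first of 2 starts, chr17:8235793-8236092, plus strand: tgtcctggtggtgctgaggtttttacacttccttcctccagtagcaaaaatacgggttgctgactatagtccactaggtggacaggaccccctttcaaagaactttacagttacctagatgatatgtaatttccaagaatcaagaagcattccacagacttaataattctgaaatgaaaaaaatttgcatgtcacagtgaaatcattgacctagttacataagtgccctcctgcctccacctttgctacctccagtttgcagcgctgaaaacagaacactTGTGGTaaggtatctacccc
The Cxcr6 window held 1 RUNX match. The window of the first Ccr6 start held 1 RUNX match, 30 bases after the start. No searched motif was found in these letters of the Gpr183 window or in the window of the other Ccr6 start. Among 32851 promoter windows of the same length, 16.8% held TGTGGT, so such a match is common.

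Cxcr6, Gpr183 and Ccr6 were the receptors that most cells carried in all 3 sets, Cxcr5 came next, and Cxcr3, Cxcr4, Ccr7 and Ccr9 were each found in a minority of cells. Cxcr6 had the highest level of the 8 genes in 31 of 32 R9 cells without ending, 25 of 35 R9 cells of ending 1 and 18 of 22 WT cells. It made up 66.9%, 69.4% and 53.4% of the summed mean TPM of the 8 genes in those sets. The share of Ccr6 in that sum was 13.8% in R9 cells without ending and 10.2% in R9 cells of ending 1, against 30.5% in WT cells.

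**Figure D1:**
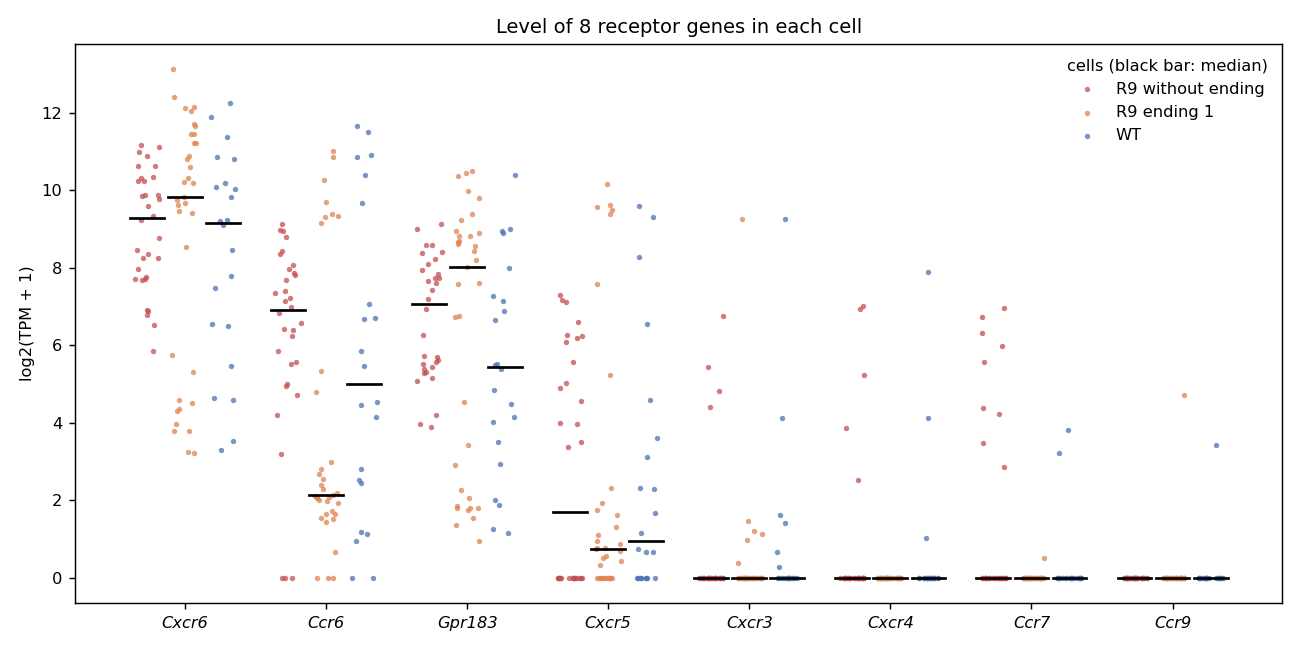
Level of the 8 receptor genes as log2(TPM + 1) on the vertical axis, with 1 point per cell and a black bar at the median, for R9 cells without ending (32), R9 cells of ending 1 (35) and WT cells (22). In R9 cells of ending 1, Cxcr6, Ccr6 and Gpr183 each fall into a high and a low range with few or no cells between, whereas the R9 cells without ending fill 1 range, apart from 3 cells with Ccr6 at 0.

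Cxcr6, the receptor for Cxcl16, was detected in every cell. Its lowest, median and highest levels were 56.6, 618 and 2323 TPM in R9 cells without ending, 8.37, 903 and 8928 TPM in R9 cells of ending 1, and 8.83, 574 and 4880 TPM in WT cells. The 3 ranges overlapped, and that of R9 cells without ending lay inside both others. The mean was 799 ± 679 TPM in R9 cells without ending and 1680 ± 1996 TPM in R9 cells of ending 1, against 1000 ± 1304 TPM in WT cells (SD over 32, 35 and 22 cells). The share of cells at 100 TPM or more was 93.8% in R9 cells without ending (95% exact Clopper-Pearson interval 79.2 to 99.2), 68.6% in R9 cells of ending 1 (50.7 to 83.1) and 68.2% in WT cells (45.1 to 86.1). These intervals cover counting error only, and those of all 3 sets overlapped. Among the R9 cells of ending 1, 11 cells lay at 52.6 TPM or below and 24 at 371 TPM or above, with none between.

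Gpr183, the oxysterol receptor, was detected in 32 of 32 R9 cells without ending, 34 of 35 R9 cells of ending 1 and 22 of 22 WT cells. With the WT columns of ending 1 alone it was detected in 5 of 9 cells, and with those of ending 2 alone in 20 of 20. The lowest, median and highest levels were 13.8, 133 and 564 TPM in R9 cells without ending, 0.930, 258 and 1441 TPM in R9 cells of ending 1, and 1.21, 42.2 and 1351 TPM in WT cells. The sets overlapped, and the WT median was the lowest of the 3. At 100 TPM or more stood 53.1% of R9 cells without ending (34.7 to 70.9), 62.9% of R9 cells of ending 1 (44.9 to 78.5) and 40.9% of WT cells (20.7 to 63.6). In the R9 cells of ending 1, 13 cells held 22 TPM or less and 22 held 105 TPM or more. One WT cell at 1351 TPM lay apart from the next at 515 TPM, and the WT mean of 174 TPM was 118 TPM without it.

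Ccr6, the receptor for Ccl20 and a surface marker of lymphoid tissue inducer-like ILC3s, differed most in the shape of its distribution. It was detected in 29 of 32 R9 cells without ending, 31 of 35 R9 cells of ending 1 and 19 of 22 WT cells. Its median was 119 TPM in R9 cells without ending and 3.36 TPM in R9 cells of ending 1, against 32.5 TPM in WT cells, while the highest cell had 558, 2080 and 3218 TPM in the same order. At 10 TPM or more the shares were 87.5% of R9 cells without ending (71.0 to 96.5), 28.6% of R9 cells of ending 1 (14.6 to 46.3) and 63.6% of WT cells (40.7 to 82.8), so the intervals of the 2 R9 series did not overlap. At 100 TPM or more they did, with 53.1% of R9 cells without ending (34.7 to 70.9), 22.9% of R9 cells of ending 1 (10.4 to 40.1) and 40.9% of WT cells (20.7 to 63.6). The R9 cells of ending 1 held 8 cells at 570 TPM or above and 27 at 39.4 TPM or below, and a distance of 3.82 on the log2(TPM + 1) scale separated the ranges. WT cells showed a gap too, with 6 cells at 818 TPM or more and 16 at 133 TPM or less. R9 cells without ending held 20 cells between 40 and 400 TPM, where R9 cells of ending 1 held 0 and WT cells 5. Fabp2, an enterocyte gene that ILCs should lack, was likewise split in R9 cells of ending 1, with 26 cells at 19.3 TPM or less and 9 at 141 TPM or more. In WT cells it was split too, with 5 cells at 88.7 TPM or less and 17 at 389 TPM or more. Its lowest WT level was 7.40 TPM, and 20 of 22 WT cells had 10 TPM or more. Shares at 1 TPM in R9 cells of ending 1, and at 1 or 10 TPM in WT cells, therefore count levels that an enterocyte gene also reached. Whether the low values are RNA of the cell itself was not tested.

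Cxcr5, the receptor for Cxcl13, was detected in 16 of 32 R9 cells without ending, 13 of 35 R9 cells of ending 1 and 11 of 22 WT cells. Detected values ran from 9.39 to 156.5 TPM in R9 cells without ending, from 1.14 to 1146 TPM in R9 cells of ending 1, and from 1.22 to 769 TPM in WT cells. The detected values of R9 cells without ending thus reached neither the high nor the low ends of the other sets. At 100 TPM or more there were 3, 6 and 3 cells. A part of the Cxcr5 exons (110 bases, 3.30%) overlaps exons of Bcl9l on the other strand, and the notes do not say whether strand was used. Bcl9l was at 1 TPM or more in 0 of 32 R9 cells without ending, 2 of 35 R9 cells of ending 1 and 2 of 22 WT cells.

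Cxcr3, the receptor for interferon-induced chemokines and best known on type 1 lymphocytes, rested on few cells. The 4 detecting R9 cells without ending had 107, 42, 27 and 20.2 TPM. In R9 cells of ending 1 the 4 values were 614, 1.76, 1.3 and 1.19 TPM, and in WT cells they were 616, 16.4, 2.04 and 1.66 TPM. In the R9 series of ending 1 and in WT cells, 1 cell was far above all others.
Cxcr4, the Cxcl12 receptor, was detected in 5 of 32 R9 cells without ending at 129, 121, 36.7, 13.6 and 4.69 TPM. It was listed at 0 in all 35 R9 cells of ending 1. The 3 detecting WT cells had 238, 16.5 and 1.02 TPM. The WT cell with the highest Cxcr3 was also the one with the highest Cxcr4.

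Ccr7, the lymph node homing receptor, was detected in 9 of 32 R9 cells without ending (28.1%, 13.7 to 46.7), in 0 of 35 R9 cells of ending 1 and in 2 of 22 WT cells (9.09%, 1.12 to 29.2). Its 9 values in R9 cells without ending were 124, 105, 78.9, 61.8, 46.3, 19.8, 17.6, 10.2 and 6.26 TPM, its highest level in R9 cells of ending 1 was 0.405 TPM, and the 2 WT values were 12.9 and 8.30 TPM. Of these values 7 stood above every cell of the other sets, and 2 lay within or below the WT values. All 9 were among the 26 cells in which one gene took at least 10% of the summed TPM, and none of the other 6 cells of the series had Ccr7. Ccr7 also marks migrating dendritic cells and naive lymphocytes. At least 1 mast cell gene was found in 9 of the 9 Ccr7 cells and in 23 of the 23 others of that series. No cell there had more than 4 of the 8 mast cell genes. At least 1 macrophage or dendritic gene was likewise found in 9 of 9 and 23 of 23. The summed TPM of 7 macrophage and dendritic genes ran from 24 to 3472 in that series, against 0 to 1874 in R9 cells of ending 1 and 0 to 4834 in WT cells. Of these genes Lyz2 was at 1 TPM or more in 31 of the 32 R9 cells without ending, C1qb in 13, C1qa in 10, Cd68 in 5, Csf1r in 4 and Flt3 in 1, while Itgax was listed at 0. T cell genes were found in 2 of the 9 Ccr7 cells and in 8 of the 23 others, with Cd3g in 9 cells of the series at a mean of 34 TPM, Cd3e in 1 cell at 128 TPM, and Cd3d, Cd8a and Cd5 listed at 0. Of the B cell genes, Cd79b was found in 4 of the 23 others (mean over the series 17.2 TPM, highest 291 TPM) and in 0 of the 9 Ccr7 cells, and Cd79a, Ms4a1, Pax5 and Cd22 were listed at 0. The part of these cell types in the Ccr7 values was not tested.

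Ccr9, the small-intestinal homing receptor, was listed at 0 in 32 of 32 R9 cells without ending. One R9 cell of ending 1 had 25.4 TPM and 1 WT cell had 9.77 TPM. Its locus on chromosome 9 overlaps several genes, of which a same-strand and an opposite-strand noncoding transcript share exon bases with it and have no row in the tables. Slc6a20a, on the opposite strand, shares 22 exon bases with it. Slc6a20a was at 1 TPM or more in 1, 3 and 3 cells of the 3 sets, among them the WT cell with Ccr9 but not the R9 cell with Ccr9. Its part in the Ccr9 values was not tested.

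**Figure D2:**
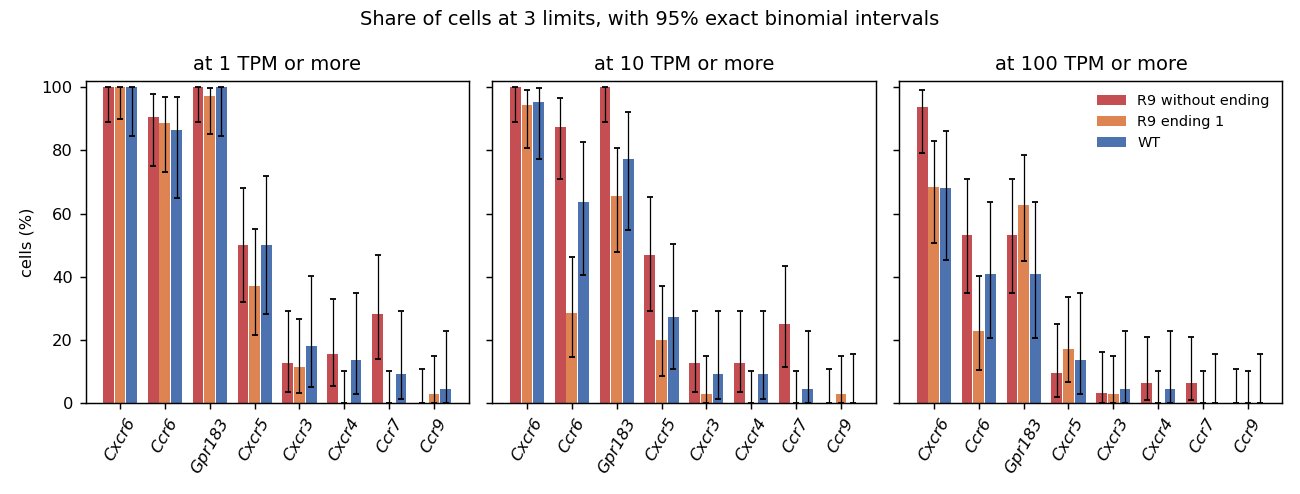
Share of cells (vertical axis, %) in which each gene reached 1, 10 or 100 TPM, for R9 cells without ending, R9 cells of ending 1 and WT cells, with 95% exact binomial intervals as black bars. Ccr6 lies near 90% in all 3 sets at 1 TPM, and at 10 TPM it is 87.5%, 28.6% and 63.6% in the order of the bars.

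The order of mean TPM was Cxcr6, Gpr183, Ccr6, Cxcr5, Ccr7, Cxcr4, Cxcr3, Ccr9 in R9 cells without ending. In R9 cells of ending 1 it was Cxcr6, Gpr183, Ccr6, Cxcr5, Cxcr3, Ccr9, Ccr7, Cxcr4, and in WT cells Cxcr6, Ccr6, Gpr183, Cxcr5, Cxcr3, Cxcr4, Ccr7, Ccr9. Neighbours were compared by the difference of their log2(TPM + 1) levels within each cell. In R9 cells without ending, Cxcr6 exceeded Gpr183 by 2.29 ± 0.69 (SD over 32 cells), in 32 of 32 cells, and Ccr6 exceeded Cxcr5 by 3.49 ± 3.42. The other neighbours there, Gpr183 and Ccr6 among them, differed by less than 1 SD over cells. No pair of neighbours differed by more than 1 SD in R9 cells of ending 1 or in WT cells, where Cxcr6 stood above the next gene by 2.45 ± 4.49 and 2.83 ± 3.90.

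The study set regenerated ILCs beside natural ones. Ratios here are log2((mean TPM + 1)/(mean TPM + 1)), which understates differences of low genes, and those over WT are levels set across 2 separately normalized tables. With 1 sample a group they carry no test. Over all genes with a mean of 1 TPM in either set, the median ratio was -0.67 for R9 cells without ending over WT cells, 0.94 for R9 cells of ending 1 over WT cells and -1.61 between the R9 series, so each ratio is read against that shift.

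For R9 cells without ending over WT cells, 7 genes passed the filter on low means, all but Ccr9. Ccr7 was higher by 2-fold or more, at a log2 ratio of 3.00, where 26.6% of all genes were. Ccr6 (-1.79), Cxcr5 (-1.40) and Cxcr3 (-2.07) were lower by 2-fold or more, where 44.5% of all genes were. Cxcr6 (-0.32), Gpr183 (-0.05) and Cxcr4 (-0.26) lay within 2-fold. The Ccr6 value rests on the high WT cells, for the mean of log2(TPM + 1) was 6.23 in R9 cells without ending and 5.50 in WT cells, a difference of 0.74 in the other direction. Cxcr5 likewise turned to 0.27 with means of log2 values, and it lay within 2-fold without each gene's highest cell (-0.90) and with common-gene scaling (-0.60). Without each gene's highest cell Cxcr3 turned to 0.96, and without the WT cell that carried the highest Cxcr3 and Cxcr4 the ratios were 1.84 for Cxcr3 and 2.52 for Cxcr4.

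For R9 cells of ending 1 over WT cells, 6 genes passed, all but Ccr7 and Ccr9. Gpr183 was higher by 2-fold or more (1.01), where 48.8% of all genes were, but it lay close to the median of all genes (0.07 above it). It reached 2-fold in 5 of 13 alternatives, which ran from 0.82 to 3.10. Ccr6 was lower by 2-fold or more (-1.21), where 20.4% of all genes were, and it stayed below 0 in all 13 alternatives run (-1.68 to -0.59), with 1 of them, WT ending 1 alone, within 2-fold. Cxcr6 (0.75), Cxcr5 (0.54) and Cxcr3 (-0.68) lay within 2-fold, and Cxcr4 was listed at 0 in the R9 cells. Cxcr3 came to 3.23 without the WT cell named above.

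With all 67 R9 cells over WT cells, Ccr7 was higher by 2-fold or more (2.03), where 43% of all genes were. Ccr6 (-1.45), Cxcr3 (-1.19) and Cxcr4 (-1.18) were lower by 2-fold or more, where 21.3% of all genes were. The signs of Cxcr3 and Cxcr4 turned without each gene's highest cell, to 1.02 and 1.00, so neither gives a direction between the groups. Ccr7 turned to -1.16 when cells with 1 gene at 10% of TPM were left out, which left 6 R9 cells without ending.

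Between R9 cells without ending and R9 cells of ending 1, which share a table, Ccr7 was higher by 2-fold or more in the cells without ending (3.96), where 16.1% of all genes were. Cxcr6 (-1.07), Gpr183 (-1.06), Cxcr5 (-1.94) and Cxcr3 (-1.39) were lower by 2-fold or more, where 64.9% of all genes were, so a lower mean was common in that series. As differences of mean log2(TPM + 1) these 4 were all above 0, at 0.23, 0.39, 0.53 and 0.26. Ccr6 had a ratio of -0.58 by means and 2.42 by mean log2 values. No fold is given for Cxcr4 and Ccr9, which were listed at 0 in 1 of the series. These comparisons share sets of cells.

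**Figure D3:**
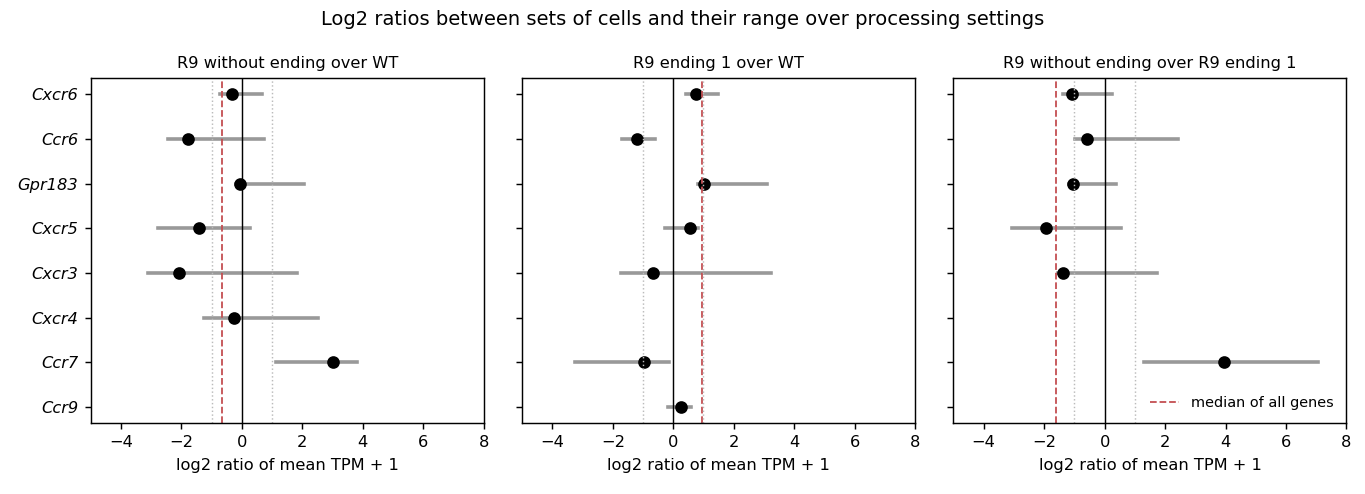
Log2 ratio of mean TPM + 1 (horizontal axis) for each gene in 3 comparisons, with the main value as a black point, its range over the other settings as a grey bar, 2-fold as dotted lines and the median of all genes as a red dashed line. Ccr7 lies above 1 in R9 cells without ending under each setting that gave a value in the left and right panels, and the bars of Cxcr3 cross 0 in all 3. Leaving out cells with 1 gene at 10% of TPM gave no Ccr7 value there, since 0 of the 6 R9 cells without ending that remained had Ccr7.

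Receptors occurred together in single cells. At 1 TPM a median of 4 of the 8 genes was detected per R9 cell without ending, with at most 5. It was 3 per R9 cell of ending 1 and 3.5 per WT cell, with at most 5 and 6. At 10 TPM the medians were 4, 2 and 3. The lowest value above 0 among the 8 genes was 4.69, 0.252 and 0.202 TPM in these sets. The WT value is an average of 2 joined columns, at 0 and 0.405 TPM. The limit of 1 TPM thus does not mean the same in R9 cells without ending as in the other sets. At 100 TPM the commonest sets of the 4 main receptors were Cxcr6, Ccr6 and Gpr183 together in R9 cells without ending (11 of 32) and Cxcr6 with Gpr183 in R9 cells of ending 1 (9 of 35). In WT cells 6 of 22 had none, 5 had Cxcr6 alone and 5 had Cxcr6, Ccr6 and Gpr183 together. Every Gpr183 cell at that limit was also a Cxcr6 cell in R9 cells without ending (17 of 17) and WT cells (9 of 9). In R9 cells of ending 1 this held for 14 of 22. Over all cells, Cxcr6 reached 100 TPM in 30 of 32 R9 cells without ending, 24 of 35 of ending 1 and 15 of 22 WT cells. In both R9 series the overlap was thus near the share of Cxcr6 over all cells. Gpr183 reached 100 TPM in 17 of 32, 22 of 35 and 9 of 22 cells of these sets. Of the 8 Ccr6 cells of ending 1, 5 had Cxcr6 and 6 had Gpr183 at 100 TPM or more. Among R9 cells without ending all 17 Ccr6 cells had Cxcr6 and 14 had Gpr183, and among WT cells 8 and 7 of 9 did.

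Of the Cxcr5 cells at 1 TPM, 15 of 16 R9 cells without ending, 13 of 13 of ending 1 and 11 of 11 WT cells had Ccr6. Over all cells Ccr6 was detected in 29 of 32, 31 of 35 and 19 of 22, so this overlap is near the share over all cells. At 100 TPM the counts were 3 of 3, 2 of 6 and 3 of 3, where Ccr6 stood in 17 of 32, 8 of 35 and 9 of 22 of all cells. All 9 Ccr7 cells of the R9 cells without ending had Ccr6, in a series where 29 of 32 cells did. Ccr7 and Cxcr4 were never detected in 1 cell, but each was rare, at 9 and 5 of 32 R9 cells without ending and 2 and 3 of 22 WT cells. Cxcr3 and Cxcr4 shared no cell among R9 cells without ending, where only 4 and 5 of 32 cells had them. In WT cells 3 of the 4 Cxcr3 cells had Cxcr4, which was in 3 of 22 cells.

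Over the 32 R9 cells without ending, Cxcr6 and Gpr183 had a Pearson r of 0.90 in log2(TPM + 1), against 0.09 over the 35 R9 cells of ending 1, and 0.70 over the 22 WT cells. Per cell, the ratio of Cxcr6 to Gpr183 TPM ran from 2.28 to 16.7 in R9 cells without ending, from 0.0213 to 1458 in R9 cells of ending 1 and from 0.810 to 1004 in WT cells. The genes of a cell share its library, depth and composition, and in R9 cells without ending many genes moved together. The median r of Cxcr6 with 865 widely detected genes was 0.40 there, -0.00196 in R9 cells of ending 1 and 0.30 in WT cells, and Gpr183 ranked 24, 274 and 36 among them. The mast cell gene Tpsb2 also followed Cxcr6 over the R9 cells without ending (r = 0.78), and Id2 did so at 0.95. Another mast cell gene, Cpa3, lay below the median of all genes there, at 0.35, and the macrophage gene Lyz2 stood at 0.44. After each cell was scaled to the same sum over 262 common genes, r of Cxcr6 with Gpr183 was 0.89, 0.06 and 0.69. Ccr6 and Gpr183 had r of 0.39, 0.03 and 0.51, and Ccr6 and Cxcr5 0.22, 0.05 and 0.56. The rank correlation (Spearman) of Ccr6 and Gpr183 was 0.62, -0.13 and 0.52. Their Pearson r was 0.98 over the 6 R9 cells without ending in which no gene took 10% of the summed TPM, so the value of 0.39 depends on the setting. What makes receptors vary together was not tested.

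**Figure D4:**
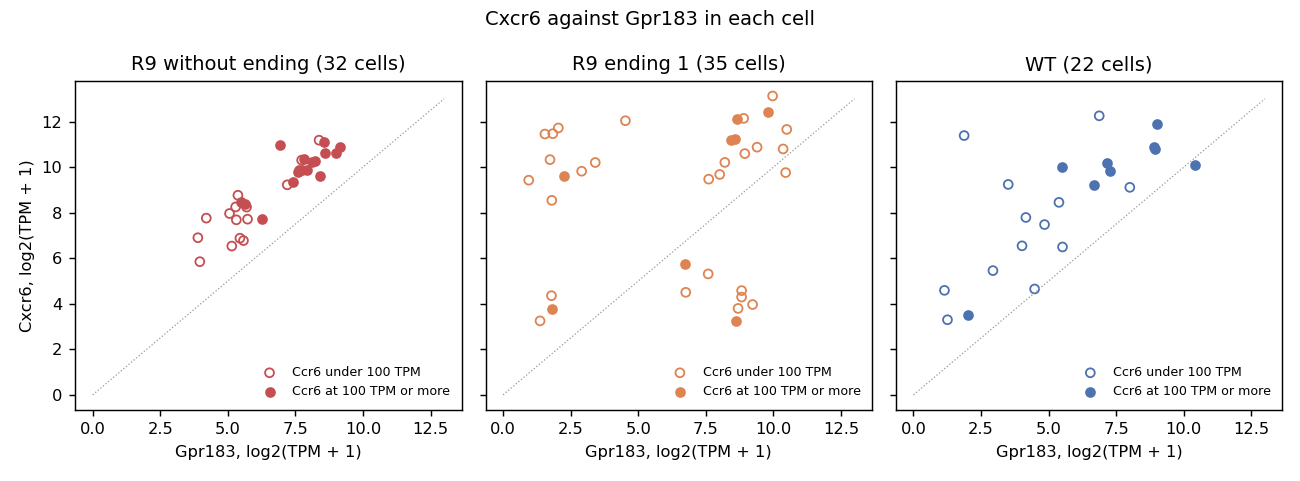
Cxcr6 (vertical axis) against Gpr183 (horizontal axis) in log2(TPM + 1), with 1 point per cell in 3 panels, filled where Ccr6 was at 100 TPM or more and a dotted line at equal levels. The R9 cells without ending form a band above the line (r = 0.90), the R9 cells of ending 1 fall into 4 corners, with 14 cells at 100 TPM or more in both genes, 10 in Cxcr6 alone, 8 in Gpr183 alone and 3 in neither, and r was 0.70 over the WT cells.

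The genes most like a receptor were taken as the 3 with the highest mean of the 3 within-set r values, among the 865 others that reached 1 TPM in 50% or more of the cells in every set. For Cxcr6 they were AW112010 (0.775), Il2rg, the common cytokine receptor chain (0.682), and Emb (0.660). For Gpr183 they were Laptm5 (0.642), Cd82 (0.614) and Itm2b (0.598), and for Ccr6 Itm2c (0.540), Rab37 (0.538) and Gpr171 (0.483). The median over all genes compared was 0.231, 0.194 and 0.140. AW112010 followed Cxcr6 in each set, at r of 0.92 in R9 cells without ending, 0.45 in R9 cells of ending 1 and 0.96 in WT cells. For Il2rg r was 0.93, 0.17 and 0.94, so it followed Cxcr6 little in R9 cells of ending 1.

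Some WT columns were so alike that they were counted as 1 cell. Columns with a Pearson r above 0.8 over shared genes were averaged, which gave 8 cells from more than 1 column and 10 pairs of columns. That a pair is 1 cell is an assumption, and since pairs were chosen for their likeness, their values are a description and no measure of how well a receptor call repeats. Over the 8 genes and 10 pairs, a receptor was detected in both columns 33 times, in 1 column 13 times and in neither 34 times. Where both detected it, the median difference was 0.17 on the log2(TPM + 1) scale and the highest was 2.37, in Gpr183, with 1.48 in Cxcr6 and 1.17 in Ccr6. Cxcr6 was in both columns of all 10 pairs, while Ccr6 and Gpr183 were each in both of 6 pairs and in 1 column of 4, at up to 9.56 TPM and 89.3 TPM. The WT cell with the highest Cxcr3 and Cxcr4 was joined from 3 columns, 1 titled 16 and 2 titled 32. The column titled 16 had 654 TPM of Cxcr3 and 207 TPM of Cxcr4. That titled 32 without ending had 614 and 263 TPM, and that titled 32 with ending 2 had 580 and 242 TPM. The next WT cell in both genes came from 2 columns titled 31, and there Cxcr3, Cxcr4 and Cxcr5 stood at 0 in the first column and at 32.9, 33 and 46.3 TPM in the other.

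**Figure D5:**
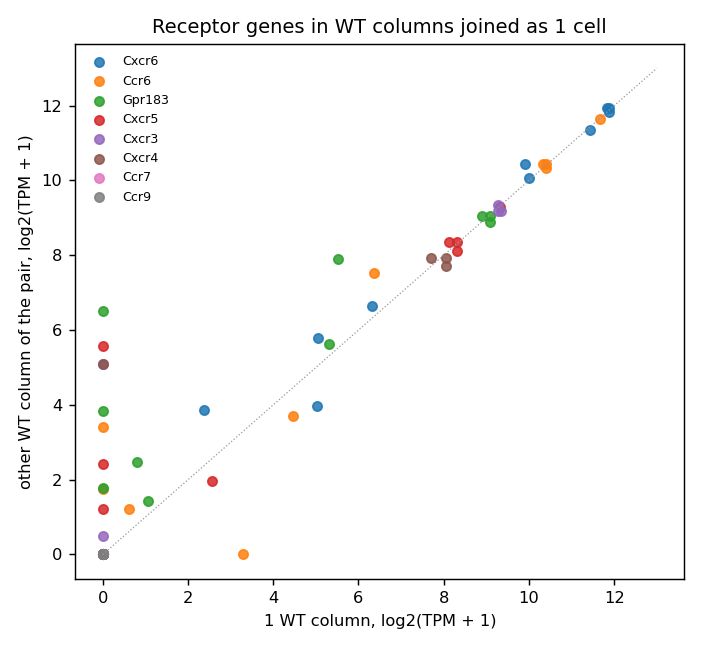
Level of each receptor gene in pairs of WT columns joined as 1 cell, as log2(TPM + 1) in 1 column (horizontal axis) and in the other (vertical axis), with 8 genes in 10 pairs and a dotted line at equal levels. Values detected in both columns differ by a median of 0.17 and at most by 2.37, and the points along the axes are the receptors detected in 1 column only.

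The ligands of these receptors were mostly listed at 0. Of 10 chemokine genes, Ccl20, Cxcl13, Ccl19, Ccl21a, Cxcl12 and Cxcl9 were listed at 0 in every cell, and so were the Gpr183 ligand enzymes Ch25h and Cyp7b1. The Cxcr6 ligand gene Cxcl16 was detected in 1 WT cell, at 36 TPM, and no R9 cell. Of the Cxcr3 ligand genes, Cxcl10 was detected in 1 R9 cell without ending (28.2 TPM) and 2 R9 cells of ending 1 (up to 1.43 TPM) and no WT cell, and Cxcl11 in no R9 cell and 1 WT cell (4.41 TPM). Ccl25, the Ccr9 ligand that small-intestinal epithelium makes, was found in more cells, with means of 21.9 TPM in R9 cells without ending (3 of 32 cells), 117 TPM in R9 cells of ending 1 (20 of 35) and 125 TPM in WT cells (6 of 22). Without the highest cell of each set these means were 6.00, 67.9 and 72.4 TPM. The means of the enterocyte gene Fabp2 were 589, 352 and 13137 TPM, and R9 cells without ending had 111 TPM once the highest cell was left out. The summed TPM of 10 epithelial genes had medians of 125, 12.7 and 1388 in these sets. The part of enterocyte RNA in the Ccl25 values was not tested.

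Of 16 other chemokine receptor genes, 12 had a row, and Ccr4, Ccr10, Cxcr1 and Cxcr2 were listed at 0 in every cell. Ccr2, a receptor of monocytes and several lymphocytes, was detected in 15 of 32 R9 cells without ending with a mean of 23 TPM, in 0 of 35 R9 cells of ending 1 and in 1 of 22 WT cells. Ccrl2, an atypical receptor that does not signal for migration, averaged 11.1, 79.6 and 4.35 TPM in these sets, and 3.98, 59.3 and 2.37 TPM without the highest cell of each. Ccr8 averaged 14.8 TPM in R9 cells without ending and 0.0236 TPM in R9 cells of ending 1, against 81.4 TPM in WT cells, where 1 cell carried nearly all of it (0.493 TPM without that cell). Lyz2, a macrophage gene, was at 1 TPM or more in 31 of the 32 R9 cells without ending, 10 of 35 R9 cells of ending 1 and 7 of 22 WT cells, and the part of such cells in the Ccr2 values was not tested.

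Of 29 genes that carry or end the receptor signal, those above 0 in both sets that passed the filter on low means are counted here, beside all genes of that kind. For R9 cells without ending over WT cells, 9 of 23 were higher by 2-fold or more, where 25.3% of all genes were, and 4 were lower, where 38.9% were. The median ratio was 0.31, beside -0.44 over all genes. For R9 cells of ending 1 over WT cells, 11 of 23 were higher, where 47.6% of all genes were, and 1 was lower, where 17.5% were, with a median of 0.99 beside 0.89. Between the R9 series 3 of 22 were higher in the cells without ending, where 14.4% of all genes were, and 11 were lower, where 62.1% were, with a median of -1.01 beside -1.51. Rac2, the Rac of blood cells, averaged 422 TPM in R9 cells without ending and 563 TPM in R9 cells of ending 1, against 164 TPM in WT cells. Dock2, its activator, averaged 8.95 and 83.0 TPM in the same R9 sets and was below 1 TPM in all 22 WT cells. Gnai2, the main Gi subunit of leukocytes, averaged 105, 312 and 121 TPM, and the WT mean was 66.1 TPM without its highest cell.

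Of 8 genes for regulators of G protein signalling, Rgs16 was listed at 0 in every cell. Rgs1, which dampens chemokine receptor signals, averaged 138 TPM in R9 cells without ending (21 of 32 cells) and 16.4 TPM in R9 cells of ending 1 (12 of 35), against 9.82 TPM in WT cells (10 of 22), and the ending 1 mean was 0.671 TPM without its highest cell. Rgs10 averaged 4.88 TPM in R9 cells without ending, where 2 cells carried it, 206 TPM in R9 cells of ending 1 and 187 TPM in WT cells. Rgs19 averaged 51.7, 52.5 and 25.8 TPM in these sets, and 41.9, 35.6 and 1.78 TPM without the highest cell of each. Rgs14 averaged 46.8, 61.9 and 82.9 TPM, and 33.6, 26.9 and 3.83 TPM without those cells. Of the transcription factor genes linked to these receptors, Tbx21, the type 1 factor associated with Cxcr3, averaged 3.04 TPM in R9 cells without ending and 0.0114 TPM in R9 cells of ending 1, against 2.93 TPM in WT cells. Single cells carried most of this, since without the highest cell the Tbx21 means were 1.19 TPM in R9 cells without ending and 0.149 TPM in WT cells. Klf2, which promotes egress from tissues, was detected in 2 R9 cells without ending and listed at 0 in all R9 cells of ending 1 and all WT cells.

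All 8 genes lie on the GRCm38 assembly (GENCODE annotation, read by symbol). Cxcr6 spans chr9:123806475-123811760 on the plus strand and Gpr183 chr14:121952551-121965195 on the minus strand. Ccr6 spans chr17:8236043-8257141 on the plus strand and Cxcr5 chr9:44511787-44561877 on the minus strand. Cxcr3 spans chrX:101731535-101734269, Cxcr4 chr1:128588199-128592293 and Ccr7 chr11:99144196-99155077, all on the minus strand, and Ccr9 chr9:123678439-123784330 on the plus strand. Cxcr6 sits within the span of Fyco1, and Gpr183 within that of Ubac2, each on the opposite strand with 0 shared exon bases. Fyco1 was at 1 TPM or more in 8, 3 and 1 cells of the 3 sets and averaged 5.07, 3.44 and 1.11 TPM, below the Cxcr6 means.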

How the data were processed

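Single ILCs were profiled by full-length RNA sequencing. Per the labels' protocols, the kits were the TruePrep DNA Library Prep Kit V2 for libraries and, before it, Discover-sc WTA Kit V2 for cDNA. Tools named in the submitters' processing notes are StringTie 1.3.4, HISAT2 2.1.0, bcl2fastq and SAMtools 0.1.19, and the build is mm10, and whether strand was used is not given in the sources used here. The authors deposited TPM values in 2 tables, 1 for R9 and 1 for WT, each column scaled to a sum of 1e+06.

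WT columns of r above 0.8 over log2(TPM + 1), in genes at 1 TPM or more in both, were averaged as 1 cell, as the tables gave joined pairs r of 0.844 to 0.995 and no other pair above 0.754. One WT column, titled 32, carries no ending in the table. The design assumed 31 WT cells. Some joined columns shared as little as 24.0% of their detected genes, so that they are 1 cell is an assumption.

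A title series is 1 sample, so no p-value was computed. Ratios used a pseudocount of 1 TPM and genes averaging at least 1 TPM in one of the sets, and shares carry Clopper-Pearson 95% intervals. All 8 genes were named, with ligands and pathway genes at a mean of 10 TPM or more in any set, the genes most like a receptor, and marker lists. Some listed genes below that mean (Tbx21 and the genes at 0 among them) or outside the rule were named after their values were seen. The genes and lists were chosen with earlier results of these data known. The joining and ratio steps were tested on simulated data. Replicate numbers did not pair cells. The tools were scipy 1.17.1, pandas 2.3.3, numpy 2.4.6, matplotlib 3.10.9 and Python 3.11.15. Some genes of the lists are not reported here.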

Additional observations from a re-analysis of the deposited data

How the results depend on the processing

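No paired analysis was possible because the replicate numbers only name cells and no result comes from a test. Ratios of mean TPM depend on single high cells, and depth is unknown, so an absence from a cell is not shown. The cause of each shift below was not tested, except that leaving out cells or genes changes what is averaged. Leaving out the WT cell of columns 16 and 32, the limit of 100 TPM and the scaled correlations were chosen after seeing the data.

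With means of log2 values, the ratio of R9 cells without ending over WT cells was 0.74 for Ccr6, 0.27 for Cxcr5 and 1.13 for Ccr7. That of R9 cells of ending 1 over WT cells was -0.31 for Ccr7, and that of all R9 cells over WT cells was 0.38 for Ccr7. Between R9 cells without ending and R9 cells of ending 1 it was 0.23 for Cxcr6, 0.39 for Gpr183, 0.53 for Cxcr5, 0.26 for Cxcr3 and 1.44 for Ccr7.

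Ccr7 moved with the pseudocount. At 0.1 TPM its ratio was -3.26 for R9 cells of ending 1 over WT cells and 7.05 between the R9 series. At 10 TPM it was -0.13 for R9 cells of ending 1 over WT cells, 1.3 between the R9 series and 1.17 for R9 cells without ending over WT cells. Without cells with 1 gene at 10% of TPM it was -1.16 for all R9 cells over WT cells.

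Without each gene's highest cell, Cxcr3 was 1.02 for all R9 cells over WT cells, 1.74 between the R9 series and 0.96 for R9 cells without ending over WT cells, and Cxcr4 was 1.00 for all R9 cells and 1.86 for R9 cells without ending over WT cells. Without the WT cell of columns 16 and 32, Cxcr3 was 3.23, 2.72 and 1.84 for R9 cells of ending 1, all R9 cells and R9 cells without ending over WT cells, and Cxcr4 was 1.60 for all R9 cells and 2.52 for R9 cells without ending.

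Counts of members past 2-fold are small. The median ratio of all genes moved with the setting too. For R9 cells of ending 1 over WT cells it was 0.94 at first, 1.65 with WT ending 1 alone and 0.21 with means of log2 values. The share of all genes past 2-fold under each setting is not given here, so the counts below are not read as a result about the receptors. For R9 cells of ending 1 over WT cells the count higher was 2 with WT ending 1 alone or without the WT cell of columns 16 and 32, and 0 with WT ending 2 alone, common-gene scaling, the deepest WT columns, means of log2 values, a pseudocount of 10 TPM, or without cells over 4000 genes, under 1500 genes or with 1 gene at 10% of TPM. The count lower was 0 with WT ending 1 alone, and 2 with WT ending 2 alone, common-gene scaling, every WT column as a cell, or without any of those 3 kinds of cells. For all R9 cells over WT cells the count higher was 2 with WT ending 1 alone, 0 with a mean of 10 TPM or more, a pseudocount of 10 TPM or without cells with 1 gene at 10% of TPM, and 3 without each gene's highest cell or the WT cell of columns 16 and 32. The count lower was 0 with WT ending 1 alone or means of log2 values and 1 with a pseudocount of 10 TPM, without each gene's highest cell or without that WT cell. For R9 cells without ending over WT cells the count higher was 2 with means of log2 values or without each gene's highest cell, 3 without that WT cell and 0 without cells with 1 gene at 10% of TPM, and the count lower was 0 with means of log2 values and 1 without each gene's highest cell. Between the R9 series the count higher was 2 with means of log2 values and 0 without cells with 1 gene at 10% of TPM, and the count lower was 1 with common-gene scaling, 0 with means of log2 values and 2 without each gene's highest cell. At 100 TPM, 1 member was found in 50% or more of WT cells, against 4 at 1 TPM.

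Cxcr6 and Gpr183 stayed above 0 and Ccr6 below 0 in all R9 cells over WT cells and in R9 cells of ending 1 over WT cells under the 13 alternatives of those ratios. Set against the median of all genes, Ccr6 stayed below it, but Cxcr6 and Gpr183 lay on both sides, Cxcr6 from -0.87 to 0.43 and Gpr183 from -0.53 to 1.24 for all R9 cells, and Cxcr6 from -0.71 to 0.30 and Gpr183 from -0.26 to 1.45 for R9 cells of ending 1.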
